A study of Caenorhabditis elegans with 2 samples.

Results

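The genes described are mxl-1, mxl-2, mxl-3, mml-1 and hlh-30, 5 of the 19973 protein-coding genes on the nuclear chromosomes of Caenorhabditis elegans, which encode transcription factors of the Myc/Mondo network. They were taken as a named list. Called regions were assigned to a gene when the summit lay inside the gene or within 5000 bp upstream of its annotated 5′ end, here called the gene window. Binding had been mapped by ChIP-seq of an eGFP-tagged transcription factor in whole L3 larvae of strain OP355, pooled from both sexes, as 2 biological replicates of 1 kind of sample. All animals carried the unc-119(tm4063) mutation and the integrated transgene wgIs355, so the tagged protein came from a transgene, and no untagged animals were analysed here. The labels conflict on the tagged factor, which is mdl-1 by the antibody and strain fields but ZK337.2 by the experiment's description, and the region lists do not settle it. The pooled and replicate lists hold peaks together with background, as their deposited descriptions say, so a low-ranked entry is a listed region and not a binding call. Read depth is unknown, and signal is the peak caller's own score with no stated scale. It was used to rank regions within 1 list and was not compared between lists.

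The network is a set of basic helix-loop-helix leucine zipper proteins that bind the E-box CACGTG in pairs. In the worm, MXL-1 and MXL-2 are Max-like partners that bind DNA with MDL-1 (Mad-like) and MML-1 (Mondo-like, related to the vertebrate carbohydrate sensors MondoA and ChREBP), respectively. MXL-3 is a further Max-like protein that represses lysosomal lipase genes in fed animals, and HLH-30, the TFEB orthologue, activates lipase, autophagy and lysosome genes when food is short.

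The sequences below come from called regions at mml-1, hlh-30 and mxl-3, all from the plus strand of WBcel235 (ce11) in the RefSeq assembly. They show all or part of the region with the highest signal at each gene, and E-box-like elements within 100 bp of other pooled summits. The proximal elements of mml-1 and mxl-3 belong to weaker regions outside the list of reproducible (IDR) regions described below. Capitals mark CACGTG or the variant CACGCG. The first is the whole region upstream of mml-1 (chrIII:7376492-7376661) and the next is the whole region in an intron of hlh-30 (chrIV:4026011-4026200). Then come 40 bases around the CACGTG nearest to mml-1 (chrIII:7375080-7375119), around the CACGCG of 2 further hlh-30 regions (chrIV:4020129-4020168 and chrIV:4028400-4028439) and around that of the mxl-3 region nearest to the gene (chrX:13351033-13351072). The last is the 81 bases centred on the highest summit upstream of mxl-3 (chrX:13353784-13353864), shown because it has neither element.
mml-1, distal region: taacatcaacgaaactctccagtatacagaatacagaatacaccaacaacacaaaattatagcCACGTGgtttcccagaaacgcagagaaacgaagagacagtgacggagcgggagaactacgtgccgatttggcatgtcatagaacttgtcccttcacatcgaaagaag
hlh-30, intronic region: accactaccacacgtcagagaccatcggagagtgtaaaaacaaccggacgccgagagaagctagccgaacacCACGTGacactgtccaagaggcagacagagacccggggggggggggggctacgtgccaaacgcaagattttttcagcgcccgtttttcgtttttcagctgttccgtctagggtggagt
mml-1, proximal element: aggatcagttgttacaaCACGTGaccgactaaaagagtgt
hlh-30, element upstream of transcript f.1: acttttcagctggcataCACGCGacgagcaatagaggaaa
hlh-30, element upstream of transcripts b.1 and c.1: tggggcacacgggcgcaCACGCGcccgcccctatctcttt
mxl-3, proximal element: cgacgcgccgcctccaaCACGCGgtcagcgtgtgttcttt
mxl-3, highest summit: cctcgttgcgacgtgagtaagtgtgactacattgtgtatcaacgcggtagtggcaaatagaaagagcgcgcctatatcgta

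The 5 genes fell into 2 sets. The windows of mml-1, hlh-30 and mxl-3 each held at least 1 region of the IDR list, the 1015 regions that the authors kept as reproducible, while those of mxl-1 and mxl-2 held none. Over all protein-coding genes, 7.0% had an IDR summit in the same window. The highest signal in the pooled list, which was called on both replicates together, was 110.2 at mml-1, 96.5 at hlh-30, 33.4 at mxl-3, 8.58 at mxl-2 and 8.41 at mxl-1, against a median of 8.45 over all genes. These values placed mml-1 at the 99.6 percentile of genes, hlh-30 at 99.4 and mxl-3 at 95.3, with mxl-2 at 51.4 and mxl-1 at 49.7. Neighbours in this order, mml-1 and hlh-30 at the top and mxl-2 and mxl-1 at the bottom, did not keep their order in both replicates. In replicate 1 hlh-30 stood above mml-1 and mxl-1 above mxl-2, and in replicate 2 the reverse held for each pair. At the mdl-1 gene itself the highest signal was 539 and 7 IDR summits lay in the window, far above the 5 genes. By the strain label the insertion targets mdl-1, so this gene is not a like comparison for the 5. What transgene copies of the locus add to its signal was not tested. All 5 windows held a pooled region, as did 84.5% of protein-coding genes, so that count says nothing particular about them.

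**Figure D1:**
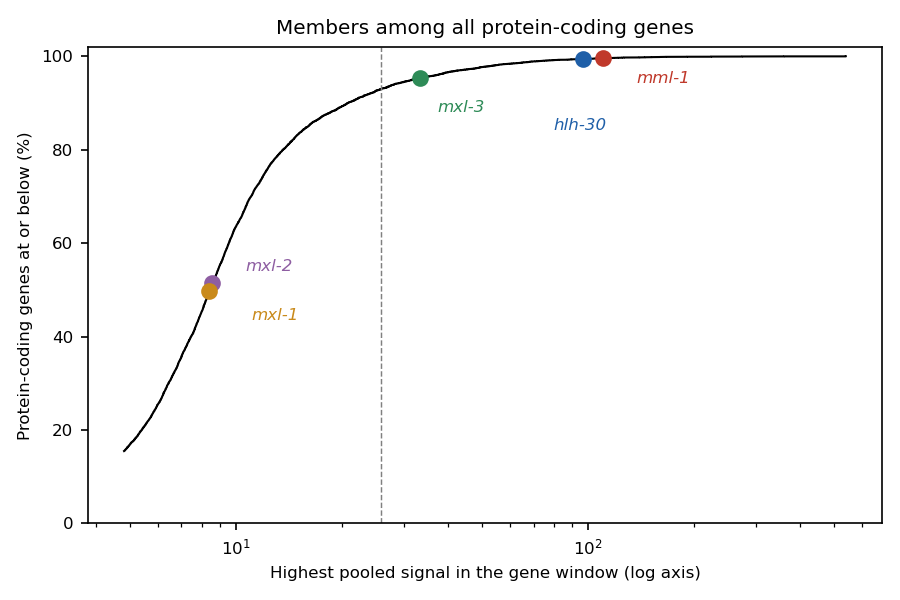
Cumulative percentage of protein-coding genes (vertical axis) by the highest pooled signal in the gene window (horizontal log axis), with each of the 5 genes as a point and the lowest IDR signal of 25.9 as a dashed line. The genes mxl-1 and mxl-2 lie at the middle of the curve, mxl-3 just past the line, and hlh-30 and mml-1 at its upper end.

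None of the IDR summits lay in a promoter window that took in 1000 bp before the 5′ end and 200 bp after it. That count was 0 of 5, against 2.52% of all genes. At that share a count of 0 is no result about these genes. Pooled regions outside the IDR list did lie in the promoter window, 1 each at mxl-3 and mml-1 and 2 at hlh-30.

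At mml-1 (WBGene00003378, chromosome III, 7370130 to 7374731, minus strand), which encodes the Mondo-like activator, a single IDR region lay 1871 bp upstream of the 5′ end. It ranked 59 in the pooled list of 30000 regions. It had a signal of 25.6 and rank 83 of 15898 in replicate 1, and a signal of 85.0 and rank 55 of 30000 in replicate 2. Both replicates thus put it among their 100 highest regions, with summits 43 bp apart or closer to that of the pooled region. The region was 170 bp wide, against 364 bp for most regions, and the nearest protein-coding 5′ end was that of mml-1. A CACGTG (7376555 to 7376560) had its centre 44.5 bp from the summit and a further one (7376694 to 7376699) 94.5 bp from it, just beyond the called region. Among the 300 IDR regions with CACGTG within 100 bp of the summit it ranked 31 by signal, and among 655 intergenic IDR regions it ranked 40.

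The other pooled regions at mml-1 had signals of 12.7 (1146 bp upstream) and 12.4 (459 bp upstream), and both were overlapped by regions of each replicate. The one nearest to the gene held a CACGTG (7375097 to 7375102) with its centre 90.5 bp from the summit. In replicate 1 the overlapping region had its summit elsewhere, with no CACGTG within 100 bp. No pooled summit lay inside the gene. By number of regions mml-1 was unremarkable, with 3 against a median of 2 and a percentile of 68.6. Its place near the top of the genes by signal rested on 1 region.

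The gene of its partner, mxl-2 (WBGene00003510, chromosome III, 186949 to 188131, minus strand), had 2 pooled regions and no IDR region. A region in an intron of mxl-2, 487 bp downstream of the 5′ end, had a pooled signal of 6.79 and rank 16931. The other, 2867 bp upstream, had a signal of 8.58 and rank 9985, lay within cox-17 and was 12 bp from its 5′ end, and its summit window held a CACGCG. Replicate 1 listed neither. Replicate 2 listed the intronic one at rank 8822 and the other at rank 24591. The window held 4 CACGTG sequences, 1710 to 4502 bp upstream, and the nearest pooled summit was over 1000 bp from each (1060.5 to 1637.5 bp). The members of the MML-1 and MXL-2 pair thus differed in these lists, with an IDR region at mml-1 and none at mxl-2. Only 7.0% of all protein-coding genes had an IDR summit in the window, so its absence at mxl-2 is no result about that gene.

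At hlh-30 (WBGene00020930, chromosome IV, 4014793 to 4034951, minus strand) the pooled list held 22 regions and the IDR list 4. Only 10 genes had more pooled regions. At least 4 IDR summits were found in 18 genes, or 0.0901%, of which 13 were autosomal. Length enters these counts, because the hlh-30 window of 25159 bp compares with a median of 7027 bp. Per kb the pooled count was 0.874 against a median of 0.2745, at the 98.7 percentile. Of 196 genes with a window at least as long, 18.9% had an IDR summit, 6 had at least 4, 7 had more pooled regions than hlh-30 and 5 had a higher signal. The 22 regions also include 6 that overlap another of them, so they are not all separate places.

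All 4 IDR regions of hlh-30 lay in its introns. The highest (signal 96.5, rank 82) had its summit 8881 bp downstream of the gene's 5′ end and 993 bp downstream of the 5′ end of transcripts d.1 and e.1. It had a signal of 30.6 and rank 54 in replicate 1, and a signal of 65.9 and rank 107 in replicate 2. A CACGTG (4026083 to 4026088) had its centre 15.5 bp from the summit, against a median of 29.0 bp over IDR regions with CACGTG. Among 296 IDR regions in introns it ranked 23, and among the 300 with CACGTG it ranked 41.

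The next region (4019893 to 4020256, signal 56.3, rank 265) lay 1031 bp upstream of the nearest transcript start, that of transcript f.1, within 5 bp of which transcripts a.1, a.2 and g.1 also begin. Its signal was 15.5 with rank 272 in replicate 1, and 40.4 with rank 311 in replicate 2. The region at 4028250 to 4028613 (signal 35.8, rank 611) lay 305 bp upstream of the shared start of transcripts b.1 and c.1. Its ranks were 400 in replicate 1 and 554 in replicate 2. Both had CACGCG in place of CACGTG, with centres 73.5 and 12.5 bp from the summit. The region at 4024137 to 4024500 (signal 33.1, rank 690) had neither element and was uneven between replicates, with rank 5021 in replicate 1 and 477 in replicate 2.

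The other 18 pooled regions of hlh-30 had signals of 4.97 to 15.8. Just upstream of the first 5′ end lay a region (summit 176 bp upstream) with a signal of 15.8, listed at rank 2344 in replicate 1 and 6906 in replicate 2. Of all 22 summits, 15 lay in introns, 2 in exons and 5 upstream. Replicate 1 had a region overlapping 14 of the 22, replicate 2 one overlapping 18, both had one for 12, and 2 had none in either. The 2 listed by replicate 1 and not by replicate 2 had summits 12882 bp (rank 613) and 10093 bp (rank 1080) downstream of the 5′ end. Replicate 2 alone listed 6.

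At mxl-3 (WBGene00003511, chromosome X, 13349639 to 13350804, minus strand), the Max-like lipase repressor, 7 pooled regions lay upstream and none in the gene. This is 1.14 per kb, at the 99.8 percentile, and in replicate 1 alone the percentile by regions per kb was 86.1. The 7 include 2 that overlap each other, so they are not all separate places. The nearest protein-coding 5′ end was that of mxl-3 for all 7. The IDR region (13353642 to 13354005, signal 33.4, rank 682) had its summit 3020 bp upstream of the 5′ end. It rested on replicate 2, in which it had a signal of 30.3 and rank 523. In replicate 1 the overlapping region had a signal of 2.73, ranked 10546 of 15898 and had its summit 103 bp away. Of the 1015 IDR regions, 84 stood at that rank or lower in replicate 1 or were not listed there. By the highest signal in the window mxl-3 was at the 96.4 percentile of genes in replicate 2 and at 55.8 in replicate 1. Genes on chromosome X had an IDR summit in 10.4% of cases, and autosomal genes in 6.47%.

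A weaker region with its summit 236 bp upstream of mxl-3 (signal 19.4, rank 1685) was listed in both replicates, at rank 8178 in replicate 1 and 2010 in replicate 2, and had a CACGCG with its centre 12.5 bp from the summit. The other 5 had pooled signals of 5.85 to 16.3 and no overlapping region in replicate 1. The 5000 bp limit matters for mxl-3. The farthest summit inside it lay 4725 bp upstream with a signal of 6.77. The nearest outside lay 5855 bp upstream (13356593 to 13356718), in the IDR list with a signal of 77.0 and rank 134. It ranked 141 in replicate 1 and 158 in replicate 2, and mxl-3 had the nearest protein-coding 5′ end. With a limit of 10000 bp mxl-3 moved to the 98.8 percentile.

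At mxl-1 (WBGene00003509, chromosome V, 11244839 to 11245926, plus strand), which encodes the Max-like partner of MDL-1, 3 weak pooled regions lay upstream, with signals of 5.73, 7.89 and 8.41. None of these 3 had mxl-1 as its nearest protein-coding 5′ end. Replicate 2 alone listed a region 1064 bp upstream (signal 5.30, rank 19008) that did, and it was the highest of mxl-1 in that replicate. The summits lay within pgap-1 and, 4987 bp upstream at the edge of the window, within ima-1. The region in ima-1 was the only one with an overlapping region in either replicate, at rank 13620 in replicate 1 and 21761 in replicate 2. No CACGTG was found in the window. With a limit of 2000 bp the window held no pooled region and mxl-1 was at the 15.1 percentile.

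**Figure D2:**
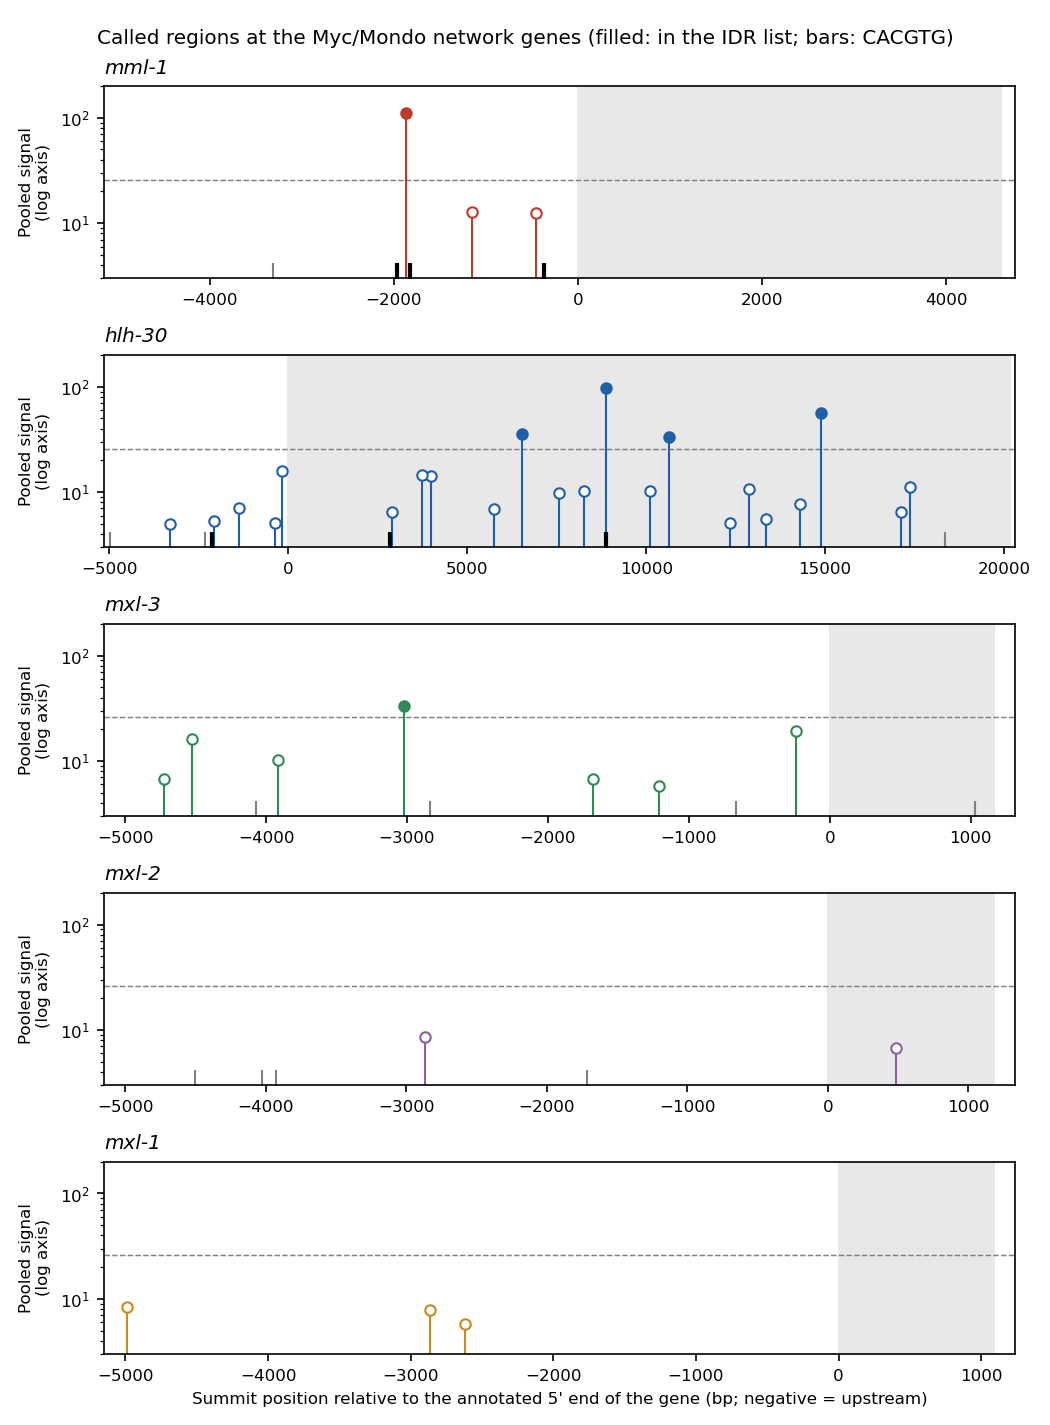
Pooled signal (vertical log axis) of each called region of the 5 genes by the position of its summit relative to the 5′ end (horizontal axis, bp), with the gene body shaded and the lowest IDR signal dashed. Filled points are in the IDR list, and bars at the base mark CACGTG, black and thick where within 100 bp of a pooled summit and grey elsewhere. The high points are 1 distal region at mml-1, 4 intronic ones at hlh-30 and 1 upstream of mxl-3.

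The E-box was then counted from the regions and from the sequence. A region with CACGTG within 100 bp of the summit was found at mml-1 and hlh-30, in 2 of 5 windows for the pooled list (11.4% of all genes) and in the same 2 for the IDR list (2.27% of all genes). Of the 6 IDR regions at these genes, 2 had CACGTG, 2 had CACGCG and 2 had neither. Windows of the same length, 201 bp, held CACGTG in 29.6% of IDR regions, 5.4% of pooled regions and 3.33% of the genome, and CACGCG in 16%, 3.56% and 2.21%. Both strands were searched, CACGTG being its own reverse complement. GAGAGA, a sequence picked from earlier results of these data, was at all 4 IDR regions of hlh-30 and at neither of the other 2, against 57.4% of IDR regions, 15.8% of pooled regions and 9.99% of the genome. CTGCGTC, picked in the same way, was at 0 of the 6, against 22.6% of IDR regions, 3.84% of pooled regions and 1.55% of the genome. The GC content of the summit windows was 54.2% at the highest hlh-30 region, 44.8% at that of mml-1 and 46.8% at that of mxl-3, with a median of 45.8% over IDR regions.

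Seen from the sequence, the 5 windows held 18 CACGTG. Of these, 6 (33.3%) lay within 100 bp of a pooled summit, against 9.61% of the 16552 CACGTG in the windows of all protein-coding genes. With the regions of replicate 1 alone the share was 11.1% (2 of 18) against 5.75%, and with those of replicate 2 alone 33.3% against 9.40%. Within 50 bp of a pooled summit it was 16.7% (3 of 18) against 5.72%. The 6 were 3 of the 4 at mml-1 and 3 of the 6 at hlh-30. None of the 4 at mxl-3 and none of the 4 at mxl-2 did so. At an IDR summit lay 3 of the 18, 2 at mml-1 and 1 at hlh-30, against 313 of the 16552. The others at hlh-30 were at low-ranked entries. One had a signal of 6.46 and rank 18667 and was not listed in replicate 1. The last had a signal of 5.27 and rank 26380 and was listed in neither replicate. At mxl-3 a CACGTG had its centre 178.5 bp from the IDR summit, outside the limit of 100 bp, and another was in an exon of the gene. Sites in 1 window share the regions called there and are not independent. The windows also differ in how densely they hold pooled regions. Per kb the count was 0.874 at hlh-30, 1.14 at mxl-3 and 0.312 at mml-1, against a median of 0.2745 over all genes. What density adds to the share of sites at a summit was not tested.

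Agreement between replicates differed between the genes. At least 1 pooled region overlapped in both replicates was found at all but mxl-2, 4 of 5, against 31.5% of all genes. The gene mxl-1 was counted only through the region in ima-1, 4987 bp upstream. With 2000 bp upstream, the nearest 5′ end only, or summits within 100 bp of each other, the count was 3. No share over all genes is given for these settings, so this count cannot be set against the 31.5%. Of the 37 pooled regions of the 5 genes, 20 (54.1%) were overlapped in replicate 1 and 31 (83.8%) in replicate 2. Over the whole pooled list these shares were 30.3% and 74.7%. Outside the IDR list, 12 of the 31 remaining regions were overlapped in both replicates, against 17.7% of all such regions. Of the 37 regions, 10 overlapped another pooled region, and such neighbours can be matched to the same replicate region. Pairs at hlh-30 were counted in this way, so the counts of shared regions are of fewer separate places. No share of such neighbours is given over the whole pooled list. All 6 IDR regions of these genes were overlapped in both replicates, as were 952 of all 1015. The IDR list held exactly the 1015 highest regions of the pooled list, so membership of it adds no evidence separate from the pooled signal.

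**Figure D3:**
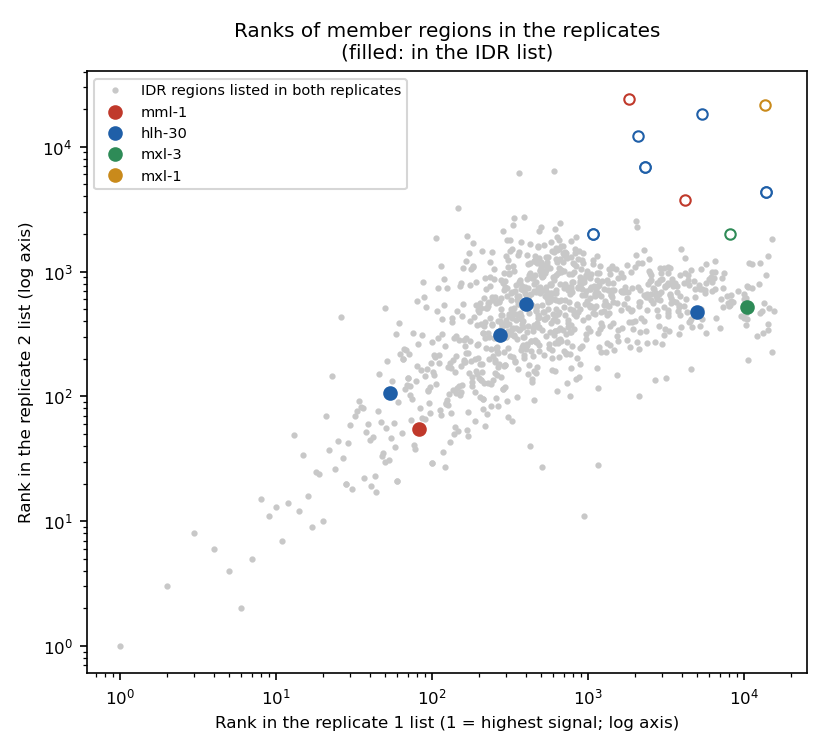
Rank in replicate 1 (horizontal log axis) against rank in replicate 2 (vertical log axis) for the regions of the 5 genes that both replicates listed. The 952 IDR regions listed in both replicates are in grey, and the 63 not listed in replicate 1 are not drawn. The gene mxl-2 has no region listed in both. The regions at mml-1 (ranks 83 and 55) and in the intron of hlh-30 (ranks 54 and 107) lie low on both axes, and the IDR region of mxl-3 lies far right, at rank 10546 in replicate 1.

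Other genes of the pathway were described in the same way, with a list of 27 genes that was drawn up with earlier results of these data known. Of these, 11 had an IDR summit in the window and 3 had one with CACGTG. The background shares are those given above, 7.0% and 2.27%. The median of the highest pooled signal was 19.2 over the list.

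Autophagy genes, which HLH-30 activates, had an IDR summit in 6 of 8 cases, against 7.0% of all protein-coding genes. Their median highest signal was 43.1. Because the list was drawn up with earlier results known, these are values only, and any link to HLH-30 was not tested. The highest were lgg-2 (an LC3 and GABARAP family protein, signal 92.7, 309 bp upstream of the 5′ end), atg-9 (a membrane protein of the autophagosome, 63.0, 136 bp upstream), lgg-1 (50.2, 837 bp upstream) and unc-51 (the kinase that starts autophagy, 49.1, 1410 bp upstream). Of these, only atg-9 had CACGTG at that region. The lgg-2 region ranked 214 in replicate 1 and 79 in replicate 2, and that at unc-51 ranked 360 and 340. The others were less even, with ranks of 1146 and 170 at atg-9, 125 and 734 at lgg-1, and 521 and 1631 at lmp-1. The IDR region counted for sqst-1 had no overlapping region in replicate 1, ranked 472 in replicate 2 and lay nearest to the 5′ end of mrpl-51.

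Lysosomal lipases, the class that MXL-3 represses, had an IDR summit at lipl-2 alone among 5 genes. That region had a signal of 113 and rank 55, close to that at mml-1, with ranks of 138 and 50 in replicates 1 and 2 and a CACGTG at the summit. It lay 1517 bp upstream of lipl-2, but the nearest protein-coding 5′ end was that of ztf-7. At lipl-1 no pooled region was listed. At lipl-5 the highest signal was 25.7, just under the lowest IDR signal of 25.9.

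Of 7 TOR pathway and nuclear export genes, which act upstream of HLH-30, 1 had an IDR summit, rheb-1 (a GTPase that activates TOR), with a signal of 27.2, 268 bp upstream of the 5′ end, and ranks of 3393 in replicate 1 and 1064 in replicate 2. Of 7 transcription factors of longevity pathways, 3 had one, against 7.0% of all protein-coding genes. They were daf-16 (FOXO, signal 52.4, rank 312), nhr-49 (a nuclear hormone receptor of lipid metabolism, 50.2, rank 337, with CACGTG) and daf-12 (a steroid hormone receptor, rank 497). The daf-16 summit lay 19393 bp downstream of its 5′ end and nearest to that of gpx-8, and that at daf-12 had no overlapping region in replicate 1. Length enters this count too, with windows of 31206 bp at daf-16 and 35968 bp at daf-12. Of the 196 genes with a window at least as long as that of hlh-30, 18.9% had an IDR summit. The gene daf-12 also lies on chromosome X, where 10.4% of genes had one.

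**Figure D4:**
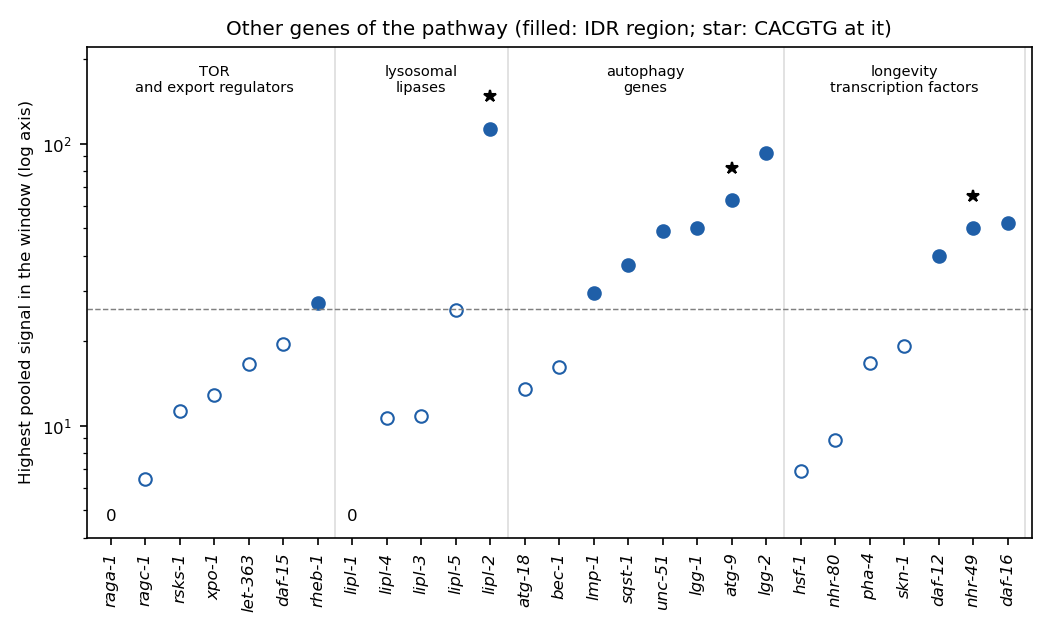
Highest pooled signal in the gene window (vertical log axis) for 27 other genes of the pathway in 4 groups. Filled points have an IDR region, stars mark CACGTG at that region, 0 marks a gene with no pooled region and the dashed line is the lowest IDR signal. Of 8 autophagy genes, 6 lie above the line, as does lipl-2, in a list drawn up with earlier results of these data known.

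Likeness of pattern was measured as the distance between 2 genes in their percentiles of highest signal in replicate 1 and replicate 2. The genes closest to hlh-30 (99.7 and 99.3) were cnnm-2 and R04E5.9, tied at 99.6 and 99.2, and those closest to mml-1 (99.5 and 99.6) were brc-1 and rpl-3, tied at 99.4 and 99.5. The closest to mxl-3 (55.8 and 96.4) was nadk-1 at 55.7 and 96.3, and to mxl-1 (38.4 and 28.6) C34C6.10 at 37.9 and 28.7. With only 2 replicates this measure describes 2 libraries.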

How the data were processed

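Only lists of called regions were used, in build ce11. Per the file descriptions, the authors made each replicate list (15898 regions in replicate 1 and 30000 in replicate 2) from 1 alignment and a control, the pooled list (30000) from both alignments and that control, and the IDR list (1015; IDR is the irreproducible discovery rate) from those. The sources used here name no aligner, peak caller or threshold. The deposited signal value is a caller's score without a stated scale. The ce10 lists were not used.

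Genes came from Ensembl release 115 (WBcel235, which is ce11) and sequence from the RefSeq copy of that assembly. Coordinates are 1-based. The motifs GAGAGA and CTGCGTC came from earlier results of these data. Overlap meant at least 1 bp. A motif had to lie wholly within 100 bp of a summit, and the genome share was taken over adjacent windows of 201 bp. Percentiles are mid-ranks over 19973 genes, with genes without a region at 0. There is 1 kind of sample, so no test was run and no p-value is given, and genes whose windows overlap share regions. Depth is unknown, so no interval was computed. The functions were tested on simulated data. Python 3.11.15, numpy 2.4.6, pandas 2.3.3 and matplotlib 3.10.9 were used.

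The genes and lists were chosen with earlier results of these data known. The 5 genes and mdl-1 were named throughout. Others were named where they held or lay nearest to a region of the 5, were among the 4 pathway genes per group of highest IDR signal, or were closest in likeness. The genes lipl-1, lipl-5, lmp-1, sqst-1, mrpl-51, ztf-7 and gpx-8, and rpl-3 and R04E5.9 (ties in likeness), fall outside this rule and were chosen after seeing their values. The alternatives tried were other windows, assignment to the nearest 5′ end, fewer regions, each replicate alone, other motif distances and overlaps, and other measures per gene.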

Additional observations from a re-analysis of the deposited data

How the results depend on the processing

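With the promoter window alone, 3 of the 5 genes had a pooled region (38.2% of all genes), 0 had an IDR region (2.52%), 1 had CACGTG at a pooled region (2.63%), and 50% of 2 CACGTG sites were at a pooled summit (12.7% over all genes). With only the 5000 highest pooled regions, 3 genes had one (28.4% of all genes). Counting CACGCG as well, 4 genes had an element at a pooled summit (17.7% of all genes). The share of CACGTG sites at a pooled summit was 55.6% with 2000 bp upstream (9.37% over all genes) and 16.7% within 50 bp of the summit (5.72%). It was 11.1% without replicate 2 (5.75% over all genes) and 33.3% without replicate 1 (9.40%). Without replicate 2, mxl-3 fell to the 55.8 percentile and mxl-2 to 16.4, while mml-1 (99.5) and hlh-30 (99.7) stayed above the 99 percentile. Over all settings mxl-1 ranged from 15.1 to 83.1, mml-1 from 58.5 (regions per kb) to 99.8 and hlh-30 from 94.2 (promoter window) to 99.9. The causes were not tested. Of 47 alternative values of the counts and shares, 38 stayed within 1.5 times the reported count or within the spread between replicates. For counts this small that margin is wide, and a change from 3 to 2 falls inside it. Of the alternative percentiles of the 5 genes, 23 stayed within the spread between replicates and 27 moved beyond it. This spread was the standard deviation of the 2 values from each replicate alone, so it was wide where the replicates disagreed. Of the 23, 9 were at mxl-2 (16.4 and 55.3 in replicates 1 and 2) and 9 at mxl-3 (55.8 and 96.4). Staying within the spread is therefore no measure of how stable a gene's place was. The IDR list could not be recomputed without a replicate. Unknown depth and 2 replicates limit all values.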

Other observations

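The highest regions of mml-1 and hlh-30 share a further run of 9 bases, CTACGTGCC, besides CACGTG. It was looked for after both sequences had been seen, as the longest run common to them on either strand. It lay within 100 bp of the summit in 3 of 1015 IDR regions (0.296%) and 48 of 30000 pooled regions (0.16%), and in 0.159% of genome windows of the same length. The IDR and pooled counts include the mml-1 and hlh-30 regions from which the run was taken. Those shares are therefore not independent of its choice. The shorter TACGTG in the run was at 5.02% of IDR summits, 3.87% of pooled summits and 3.84% of genome windows. So few IDR regions hold the longer run that these shares are values only.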
